A study of Mus musculus with 6 samples.

Results

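The genes described here encode proteins of desmosomes and adherens junctions, the junctions at which cadherins join neighbouring cells and catenins or plaque proteins tie the cadherins to the cytoskeleton. They are 10 named genes of the 27179 in the deposited table: the desmosomal cadherins Dsc2, Dsc3 and Dsg2, the plaque proteins Dsp and Jup, the classical cadherin Cdh2, and the catenins Ctnna1, Ctnna2, Ctnnb1 and Ctnnd1. Rows were taken where the gene symbol equalled one of these names, and each name matched 1 row. The names were chosen by earlier results of the same contrast, in which Dsc3 had one of the larger decreases. Their differences between the groups are therefore given as a description, with no p-value, and counts of calls among them support nothing. RNA was measured by poly(A) sequencing of cerebral cortex from C57BL/6N mouse embryos at E18.5, to ask how loss of CAP1, a protein that binds actin, alters gene expression. The Control group (libraries FF1, FF2 and FF4) had the genotype Cap1 flx/flx. The CAP1-KO group (FCRE3, FCRE4 and FCRE5) had the genotype Cap1flx/flx,Nestin-CRE, so both groups carried the flanked alleles and only the second carried the recombinase. The Nestin promoter drives Cre in neural progenitors and leaves cells of other origins with the gene. No Cre-only group was analysed here, so effects of Cre and of CAP1 loss cannot be told apart.

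In a desmosome, desmocollins and desmogleins of adjoining cells bind each other, plakoglobin (Jup) and plakophilins bind their tails, and desmoplakin (Dsp) anchors the plaque to intermediate filaments. In an adherens junction, a classical cadherin binds beta-catenin (Ctnnb1) or plakoglobin and p120 catenin (Ctnnd1), and alpha-catenins (Ctnna1, Ctnna2) connect the complex to actin through partners such as vinculin. In the developing cortex N-cadherin (Cdh2) is the main cadherin of the ventricular surface, while desmosomes are known chiefly from epithelia, heart muscle and the meninges. Beta-catenin also acts in the nucleus as the coactivator of Wnt signalling.

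Depth was 32443864 to 36302598 reads per library, and 1 CPM (counts per 1000000 reads, on the authors' scaling) corresponded to 31.2 to 37.3 reads. The targeted gene, Cap1, fell from a Control mean of 184 ± 16.2 CPM to a CAP1-KO mean of 85.1 ± 2.0 CPM (SD over 3 libraries, log2 fold change -1.10, limma adjusted p = 0.000283). Cortical neuron markers (6 of 6 detected) summed to between 1718 and 2586 CPM under Control, and to between 1698 and 1881 under CAP1-KO, so the labelled tissue carried its markers. The lowest Control sum was that of FF4, which lay 32.8% below the mean of FF1 and FF2. Xist, the transcript of the inactive X chromosome, was near 0 in FF1 (0.577 CPM) and FF4 (2.05 CPM) but stood at 2296 CPM in FF2, close to its 2398 to 2653 CPM under CAP1-KO. Epithelial markers (6 genes) summed to at most 1.8 CPM in any library. A bulk level cannot separate fewer cells of a type from less RNA per cell. The limma p-values set the difference between the groups against the spread of these 6 libraries within them, moderated over all genes. An exact permutation test of 3 against 3 could not go below 0.1.

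Among the desmosomal cadherins, desmocollin 3 was lower in every CAP1-KO library and the other genes of the group overlapped between genotypes. Dsc3 (gene number 13507, GRCm38 chromosome 18, 19960930 to 20002410) encodes a desmocollin of stratified epithelia. It measured 7.79 CPM in FF1, 9.91 in FF2 and 8.94 in FF4, against 3.62 in FCRE3, 4.01 in FCRE4 and 2.59 in FCRE5. The lowest Control library thus lay above the highest CAP1-KO library. The means were 8.88 ± 1.06 and 3.41 ± 0.73 CPM (SD, n = 3 each), so CAP1-KO stood at 38.4% of Control, a log2 fold change of -1.17 (SE 0.14) on the log2(CPM + 1) scale. These values rest on 243, 333 and 296 reads in Control and 135, 145 and 89 reads in CAP1-KO. The highest level was in FF2, the Control library whose Xist level was like that of the CAP1-KO libraries. The Control libraries with little Xist, FF1 and FF4, also lay above every CAP1-KO library. Xist was high in every CAP1-KO library but, within Control, only in FF2. Its level, and the sex that it marks, thus went partly with genotype. With Xist as a covariate the log2 fold change was -1.33 and Dsc3 was not called. A covariate that overlaps with the groups leaves less to tell them apart by. In that fit 26 genes of the whole table were called, against 134 as reported. What part differences that go with Xist have in the Dsc3 level was not tested.

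Dsc2 (gene number 13506, chromosome 18, 20030633 to 20059554), the desmocollin of simple epithelia and heart, was near 1 CPM. Its levels were 0.77 CPM in FF1, 0.744 in FF2 and 1.36 in FF4, and 1.31 in FCRE3, 1.33 in FCRE4 and 0.962 in FCRE5. FF4 was the highest of all 6 libraries, so the groups overlapped (log2 fold change 0.18, SE 0.16). With 24 to 49 reads per library, it is the least deeply measured of the 10 genes. Its Control mean of 0.958 CPM was under the 1 CPM required of the mean over all libraries, and it was tested only because the CAP1-KO mean of 1.20 CPM was above it. Dsg2 (gene number 13511, chromosome 18, 20558074 to 20604526) encodes the desmoglein that occurs in all desmosome-bearing tissues. It measured 2.69, 2.38 and 1.78 CPM in FF1, FF2 and FF4, and 2.25, 1.83 and 1.92 CPM in FCRE3, FCRE4 and FCRE5. FF4 was the lowest library of both groups, and the log2 fold change was -0.12 (SE 0.14). The desmocollin partners thus stood on opposite sides of 0, with the Dsc3 difference several SE wide and the Dsc2 difference about 1 SE wide.

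**Figure D1:**
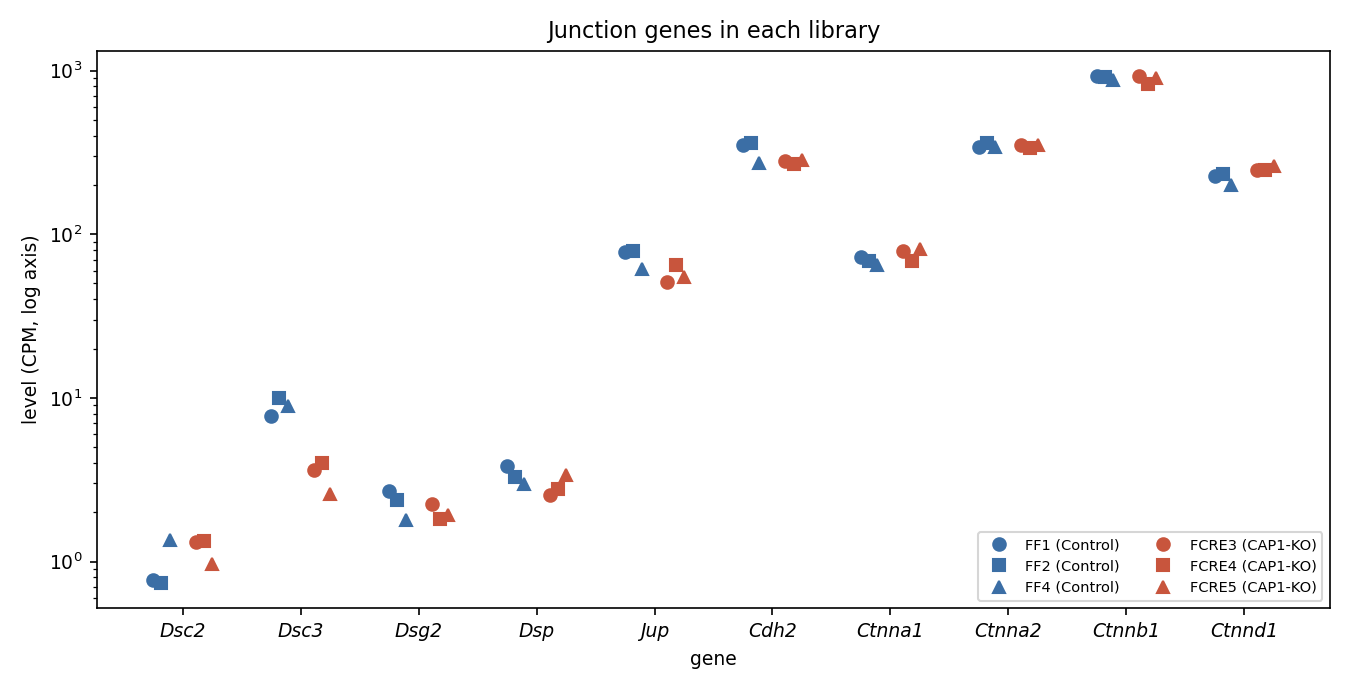
Level of each of the 10 genes in each library, in CPM on a log axis; blue marks are the 3 Control libraries and red marks the 3 CAP1-KO libraries. The Dsc3 groups stand apart (7.79 to 9.91 CPM against 2.59 to 4.01 CPM), the Ctnnd1 groups stand apart in the other direction (199.9 to 233 against 247 to 263 CPM), and the groups of the other 8 genes overlap.

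The plaque genes were lower on average in CAP1-KO, with overlap between the groups. Dsp (gene number 109620, chromosome 13, 38151294 to 38198577) encodes desmoplakin, the link to intermediate filaments. It measured 3.82, 3.28 and 2.96 CPM in FF1, FF2 and FF4, and 2.55, 2.77 and 3.38 CPM in FCRE3, FCRE4 and FCRE5. FCRE5 exceeded both FF2 and FF4, and the log2 fold change was -0.16 (SE 0.12). Jup (gene number 16480, chromosome 11, 100368856 to 100397839) encodes plakoglobin, a paralog of beta-catenin that serves in both kinds of junction. It measured 77.5, 79.1 and 61.5 CPM in FF1, FF2 and FF4, and 51.4, 64.5 and 54.7 CPM in FCRE3, FCRE4 and FCRE5. The means were 72.7 ± 9.7 and 56.9 ± 6.8 CPM, a log2 fold change of -0.35 (SE 0.12). The groups overlapped only because FF4 lay below FCRE4. FF4 was 21.4% below the mean of FF1 and FF2. Without FF4 the log2 fold change of Jup was -0.46, and without FCRE4 it was -0.44.

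Cdh2 also had FF4 as the lowest library of its Control group. Cdh2 (gene number 12558, chromosome 18, 16588877 to 16809246), the gene of N-cadherin, measured 351 CPM in FF1, 361 in FF2 and 272 in FF4. The CAP1-KO libraries lay close together, at 279 CPM in FCRE3, 268 in FCRE4 and 283 in FCRE5. FF4 stood among the CAP1-KO libraries, 23.6% below the mean of FF1 and FF2, and the other Control libraries stood above all of them. The means were 328 ± 48.8 and 277 ± 8.1 CPM, with a log2 fold change of -0.23 (SE 0.10), which became -0.36 without FF4. The summed cortical neuron markers had a low FF4 value too, and their part in the Jup and Cdh2 levels was not tested.

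Of the catenins, p120 catenin was higher in every CAP1-KO library and the alpha- and beta-catenins differed little. Ctnnd1 (gene number 12388, chromosome 2, 84587096 to 84658977) encodes p120 catenin, which binds the cadherin tail near the membrane and keeps cadherins at the surface. It measured 228, 233 and 199.9 CPM in FF1, FF2 and FF4, and 248, 247 and 263 CPM in FCRE3, FCRE4 and FCRE5. All CAP1-KO libraries exceeded all Control libraries. The means were 220 ± 17.8 and 253 ± 8.7 CPM, a log2 fold change of 0.20 (SE 0.07). In contrast to Jup and Cdh2, the low value of FF4 (13.3% below FF1 and FF2) widened the difference here, and without FF4 it was 0.13.

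Ctnna1 (gene number 12385, chromosome 18, 35118902 to 35254776), the alpha-catenin of epithelia and progenitors, measured 72.7, 69.0 and 64.4 CPM in FF1, FF2 and FF4. In FCRE3, FCRE4 and FCRE5 it measured 78.4, 68.6 and 81.0 CPM. FCRE4 lay below 2 Control libraries, and the log2 fold change was 0.14 (SE 0.07). Ctnna2 (gene number 12386, chromosome 6, 76881637 to 77979815), the alpha-catenin of neurons, ranged from 337 to 362 CPM over all 6 libraries, with a log2 fold change of -0.0036 (SE 0.05). Ctnnb1 (gene number 12387, chromosome 9, 120933400 to 120960507) measured 925, 908 and 880 CPM in FF1, FF2 and FF4, and 921, 826 and 905 CPM in FCRE3, FCRE4 and FCRE5. FCRE4 was its lowest library, and the log2 fold change was -0.03 (SE 0.06). The signs of the Ctnna2 and Ctnnb1 differences were not stable: both turned positive when libraries were scaled to total reads (0.062 and 0.032). That scaling also moved the median over all tested genes, from -0.006 to 0.056, so this turn is not particular to the 2 genes.

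Of the 10 genes, 10 passed the filter on low values. In the limma fit over 13885 genes, 1 was called lower (Dsc3) and 0 were called higher, beside 0.403% of all tested genes called lower, 0.562% called higher and 0.965% called in either direction. For 2 of the 10, the groups did not overlap, beside 25.6% of all tested genes. The median log2 fold change was -0.08 for the 10 genes and -0.006 for all tested genes. Since this contrast chose the genes, nothing is read from these counts. The number called was 0 without FF2, 0 without FCRE3, 0 with Xist as a covariate in the fit, and 3 when FF4 was left out, when 3914 genes were called in all. By the authors' deposited table, a single gene of the 10 had an FDR under 0.05, again Dsc3, and its deposited log2 fold change was -1.38.

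**Figure D2:**
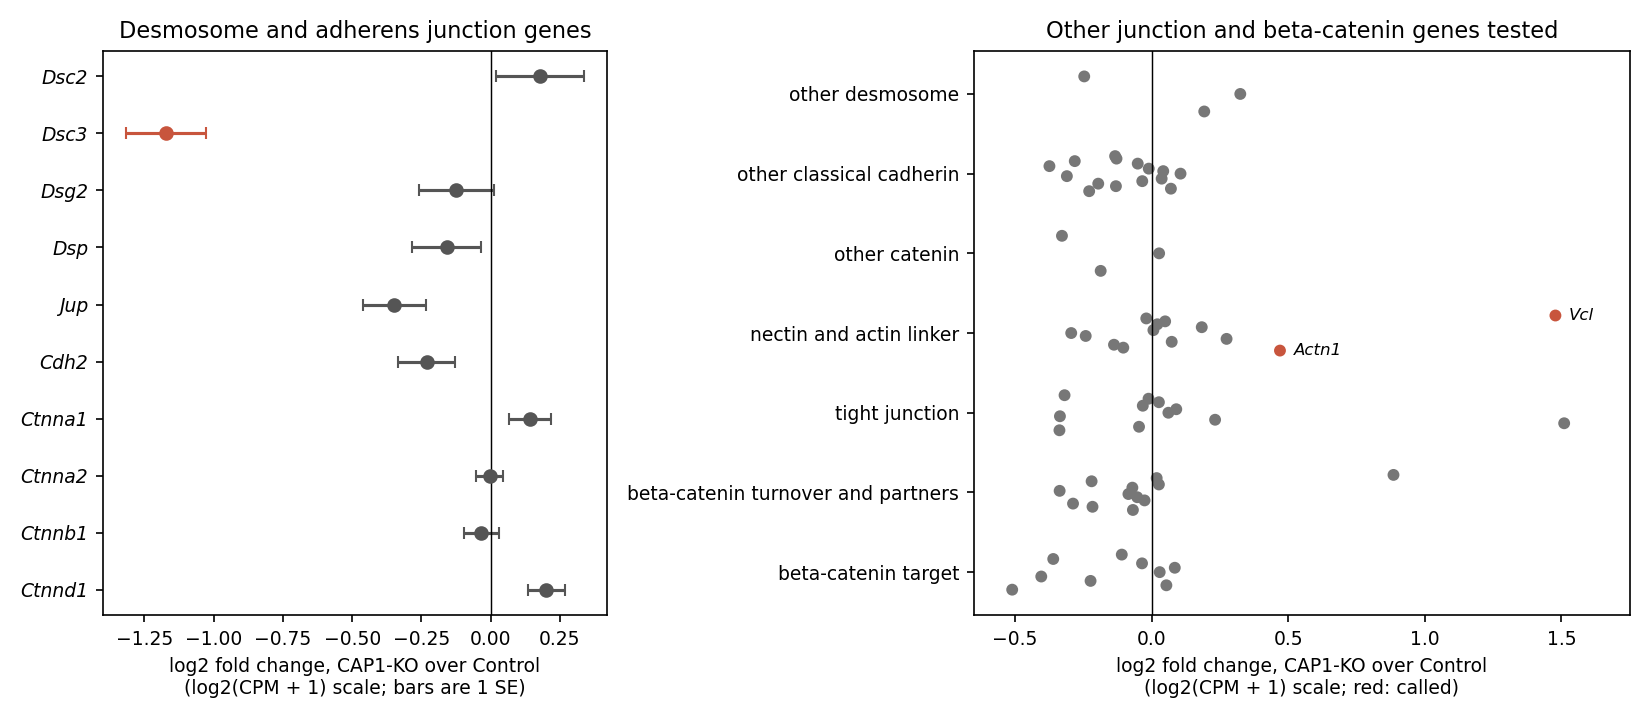
Log2 fold change of CAP1-KO over Control on the log2(CPM + 1) scale. On the left, points are the 10 genes and bars 1 SE, from -1.17 for Dsc3 to 0.20 for Ctnnd1. On the right, each point is one of the 66 other junction and beta-catenin genes tested, by list. The called genes Vcl (1.48) and Actn1 (0.47) are in red. The points include Cldn11, which passed the filter on low values only through FCRE4 and FCRE5, so its position is not read.

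Levels were compared between genes per length, as CPM per kilobase of the longest coding transcript in GENCODE. Over all 6 libraries, Ctnnb1 had the highest mean, 246.9 ± 10.2 CPM per kilobase, followed by Ctnna2 at 83.5 ± 2.3, Cdh2 at 62.4 ± 8.6 and Ctnnd1 at 49.96 ± 4.6 (SD over 6 libraries). Jup at 20.2 ± 3.6 and Ctnna1 at 19.4 ± 1.7 CPM per kilobase came next. The ranges of Cdh2 and Ctnnd1 overlapped, as did those of Jup and Ctnna1, so these neighbours were not separated. The desmosome-specific genes stood far below the adherens junction genes. Dsc3 was at 1.15 ± 0.583 CPM per kilobase, and Dsg2 (0.372), Dsp (0.326) and Dsc2 (0.233) followed with overlapping neighbours. Dsc3 was thus the most abundant of the 3 desmosomal cadherins per length over the 6 libraries, and even its lowest library (0.486) lay above the highest of Dsg2 (0.467).

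Within groups of paralogs, the share held by p120 catenin stood apart between the genotypes, and that of N-cadherin did so only narrowly. Ctnnd1 made up 36.6%, 37.3% and 38.2% of the summed level per kilobase of Ctnnd1, Ctnnd2 and Arvcf in FF1, FF2 and FF4, and 45.6%, 43.9% and 46.8% in FCRE3, FCRE4 and FCRE5. The share was 37.4% ± 0.8 in Control and 45.5% ± 1.5 in CAP1-KO, with no overlap and with FF4 close to the other Control libraries. Ctnnd2, delta-catenin of neurons, averaged 311 ± 41.4 CPM for Control against 246 ± 13.9 for CAP1-KO, and Arvcf 121 ± 7.8 and 107 ± 2.8 CPM. Neither passed the test (limma adjusted p = 0.121 and 0.125), although the groups of both did not overlap. Plakoglobin made up 8.3% ± 0.9 of the summed level per kilobase of Jup and Ctnnb1 in Control and 6.8% ± 1.1 in CAP1-KO, with overlap. Ctnna1 made up 18.04% ± 0.97 and 19.6% ± 1.0 of the summed alpha-catenin level per kilobase, also with overlap. Cdh2 made up 59.9% ± 3.1 of the summed level per kilobase of Cdh2, Cdh4 and Cdh11 in Control and 55.6% ± 0.6 in CAP1-KO. Its groups did not overlap either, with FF4 (56.4%) just above FCRE3 (56.2%). The sum leaves out other cadherins, such as Cdh8 (93.6 ± 13.1 CPM in Control), and shares of other sums were not computed.

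**Figure D3:**
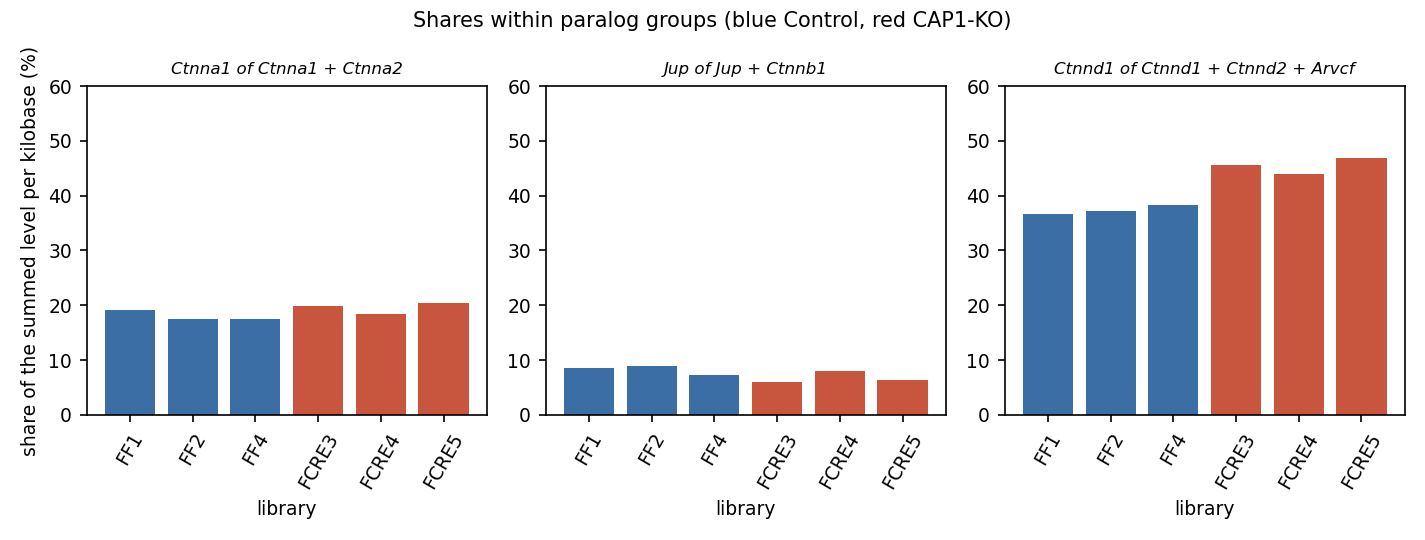
Share of 1 gene in the summed level per kilobase of its paralog group, in percent, for each library (blue Control, red CAP1-KO, bars from 0). The Ctnnd1 bars run from 36.6% to 38.2% in Control and from 43.9% to 46.8% in CAP1-KO, while the Ctnna1 and Jup bars overlap between the groups.

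The other genes of these junctions were read from 7 lists holding 84 names, of which 66 passed the filter on low values. Of the 66, 2 rose in CAP1-KO (limma with Benjamini-Hochberg adjustment) and 0 fell, and both that rose are linkers between junctions and actin. Vcl encodes vinculin, which binds alpha-catenin under tension, and is a known target of the transcription factor SRF. It measured 27.1, 24.4 and 35.7 CPM in FF1, FF2 and FF4, and 82.5, 79.4 and 83.5 CPM in FCRE3, FCRE4 and FCRE5. Every CAP1-KO library held more than any Control library, with FF4 the highest of the Control group. The means were 29.1 ± 5.9 and 81.8 ± 2.1 CPM, a log2 fold change of 1.48 (SE 0.12, adjusted p = 0.00177), which was called in all 13 alternatives run. Actn1 encodes alpha-actinin 1, an actin crosslinker and another known SRF target, and rose from 46.1 ± 2.3 to 64.4 ± 6.4 CPM. Its log2 fold change of 0.47 (SE 0.08, adjusted p = 0.0408) was called in 7 of the 13 alternatives. The call was lost without FF1 (limma adjusted p = 0.137), FF2 (0.185), FCRE3 (0.0572) or FCRE5 (0.202), with no filter (0.072) and with the Xist covariate (0.23). The nectin and actin linker list had 2 of 13 genes called, beside the 0.562% of all genes called higher, and a median log2 fold change of 0.02. The lists were chosen with earlier results of these data known. Nothing is therefore read from this count or from those of the other lists.

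In the remaining lists no gene was called by limma, and limma-voom called 0 in each as well. The counts at an unadjusted p under 0.05 given for each list stand beside 23% of all tested genes at that level. Of the other desmosome genes 3 were tested, with 1 at an unadjusted p under 0.05 and a median log2 fold change of 0.19. Pkp4, a relative of the plakophilins, averaged 134 ± 12.8 CPM for Control against 113 ± 11.6 for CAP1-KO (log2 fold change -0.25, SE 0.09, limma adjusted p = 0.171). Perp, a tetraspan protein of desmosomes, was near 3 CPM (2.91 ± 0.89 and 3.85 ± 0.64 CPM, limma adjusted p = 0.312). Of the other classical cadherins, a list that also holds Cdh13, a cadherin without a cytoplasmic tail, 15 were tested. Of these, 4, Cdh13 among them, were at an unadjusted p under 0.05, and the median was -0.13. Cdh4 (R-cadherin) measured 168 ± 10.2 and 166 ± 2.6 CPM, and Cdh11, a cadherin of mesenchyme that neurons also carry, measured 105 ± 4.7 and 111 ± 2.2 CPM (limma adjusted p = 0.929 and 0.42). The other catenin list had 3 genes tested, 2 of them at an unadjusted p under 0.05, and a median of -0.19.

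The tight junction list had 11 genes tested, 5 at an unadjusted p under 0.05 and a median log2 fold change of -0.01. Those 5 include Cldn11 (Control mean 0.265 CPM), which passed the filter on low values only through FCRE4 and FCRE5. Its place in this and later counts supports nothing. Tjp1 (ZO-1, a scaffold that also sits at adherens junctions) averaged 80.7 ± 2.3 CPM for Control against 82.2 ± 1.7 for CAP1-KO. Cldn5, the claudin of brain endothelium, measured 34.9 ± 4.3 and 27.4 ± 1.3 CPM (limma adjusted p = 0.11), beside endothelial markers, a list that includes Cldn5, whose sum was 174.8 to 194.4 CPM for Control against 140 to 154 for CAP1-KO. Genes of beta-catenin turnover and its nuclear partners had 12 tested, 3 at an unadjusted p under 0.05 and a median of -0.07. Apc and Gsk3b, of the complex that marks beta-catenin for degradation, measured 975.2 ± 23.7 and 931 ± 41.9 CPM, and 383 ± 35.9 and 364 ± 13.0 CPM, in Control and CAP1-KO (limma adjusted p = 0.539 and 0.61). Beta-catenin targets had 9 tested, 4 at an unadjusted p under 0.05 and a median of -0.11. Apcdd1, a Wnt-induced inhibitor, measured 53.1 ± 9.6 and 36.6 ± 1.7 CPM (log2 fold change -0.51, SE 0.12, limma adjusted p = 0.0919), and Ccnd1 (cyclin D1) 34.9 ± 3.1 and 29.7 ± 1.2 CPM (limma adjusted p = 0.136). Over the 7 lists the groups did not overlap for 5 of the 66 genes with CAP1-KO higher and for 14 with CAP1-KO lower, beside 11.1% and 14.6% of all tested genes. Leaving out FF4, which brought 28.2% of all genes tested in that fit past the threshold, raised the number called to 3 of the other desmosome genes, 3 cadherins, 2 catenins, 6 linkers, 5 tight junction genes, 7 turnover genes and 3 targets. Cldn11 is among these 5 tight junction genes, and among the 5 genes with CAP1-KO higher and no overlap.

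The sequence before the start of the catenin paralogs Jup and Ctnnb1 is printed with that of Vcl, which is named because it was called. Each stretch is the first 200 bases of a window that begins 250 bases before the annotated start (RefSeq, GRCm38.p6, read on the gene's strand, 5′ to 3′), and capitals mark the CArG box, the SRF binding motif.
Jup (chr11:100397841-100398040, minus strand): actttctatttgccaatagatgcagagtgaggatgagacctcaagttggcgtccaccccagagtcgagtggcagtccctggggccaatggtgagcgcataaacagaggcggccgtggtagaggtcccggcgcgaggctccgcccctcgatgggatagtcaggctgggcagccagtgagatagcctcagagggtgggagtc
Ctnnb1 (chr9:120933150-120933349, plus strand): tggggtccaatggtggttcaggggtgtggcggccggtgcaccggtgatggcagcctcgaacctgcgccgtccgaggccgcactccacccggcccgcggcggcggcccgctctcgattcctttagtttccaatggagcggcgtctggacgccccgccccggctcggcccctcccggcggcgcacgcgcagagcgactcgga
Vcl (chr14:20929148-20929347, plus strand): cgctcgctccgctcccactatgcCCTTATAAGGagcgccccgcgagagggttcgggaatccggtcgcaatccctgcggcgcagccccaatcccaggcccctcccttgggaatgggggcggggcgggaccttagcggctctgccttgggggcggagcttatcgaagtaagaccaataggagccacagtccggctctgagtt

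The Vcl box begins 227 bases before the annotated start, and its window also holds the core GGAATG bound by TEAD factors. Windows were found for Dsp, Jup, Ctnna2, Ctnnb1 and Ctnnd1 (7 windows of 5 genes), and Dsc2, Dsc3, Dsg2, Cdh2 and Ctnna1 are named only. On either strand, 0 of the 7 windows held the CArG box, GGAATG, or CTTTGA, the core of the TCF and LEF motif, and the Actn1 window held none of the 3 either. Over 32851 windows of the same length, 1.63% held the CArG box, 14.7% held GGAATG and 16% held CTTTGA. These matches describe letters in the windows only.

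The 3 desmosomal cadherins of the set lie in 1 cluster on chromosome 18, and Dsc3 was the only one of the 3 whose groups did not overlap. From Dsc3 through Dsc2, the other desmogleins and Dsg2 to Ttr and B4galt6 the table held 11 rows, of which 5 were tested. Dsc2 starts 69.7 kb from Dsc3 and Dsg2 starts 597 kb from it, both with overlapping groups. The 6 rows between Dsc2 and Dsg2 had 1 to 24 reads each over the 6 libraries together, and their symbols and gene numbers disagree in the table. Ttr, the next gene after Dsg2 and 703 kb from Dsc3, was at most 0.332 CPM in any Control library. It reached 47.0 to 104 CPM under CAP1-KO, and passed the filter on low values through those libraries alone. B4galt6, at 724 kb, measured 94.4 to 118 CPM in CAP1-KO against 121 to 131 for Control and did not pass the test (limma adjusted p = 0.114).

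Ttr encodes transthyretin, the defining product of the choroid plexus, an epithelium. The 5 choroid plexus markers, Ttr included, summed to 1.16 to 4.96 CPM for Control against 52.7 to 115 for CAP1-KO. Most of the CAP1-KO sums was Ttr, with 90.9, 104 and 47.0 CPM in FCRE3, FCRE4 and FCRE5. Of the 5, 4 were tested: Ttr, Clic6, Aqp1 and Otx2. Their Control means were under 1 CPM (0.152, 0.65, 0.953 and 0.978), so they passed the filter on low values only through CAP1-KO. Whether their groups stood apart is therefore not counted. None of the 5 was at 0 over all libraries. Meningeal and arachnoid markers (11 genes) summed to 19.9 to 20.7 CPM in Control, and to 21.0 CPM in FCRE3, 102 in FCRE4 and 92.6 in FCRE5. Microglial markers (4 genes) summed to 24.5 to 32.2 and 36.1 to 46.2 CPM. Dsc3 was at 4.01 and 2.59 CPM in FCRE4 and FCRE5, the libraries with high meningeal markers, and at 3.62 CPM in FCRE3, where these markers were near the Control level. Dsp was at 2.77 and 3.38 CPM in FCRE4 and FCRE5 and at 2.55 CPM in FCRE3. The part of these cells in the desmosomal levels was not tested.

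The genes whose levels followed Dsc3 most closely over the 6 libraries were Ptpru, Thrb and Pnpla6. Their Pearson correlations of log2(CPM + 1) with Dsc3 were 0.997, 0.994 and 0.992, the highest among 13885 genes, in libraries that share the difference between the groups. Ptpru, a receptor tyrosine phosphatase, measured 55.0, 58.4 and 56.7 CPM in FF1, FF2 and FF4, and 47.7, 47.6 and 45.1 CPM in FCRE3, FCRE4 and FCRE5. Thrb, a thyroid hormone receptor, measured 6.73, 7.09 and 7.25 CPM in FF1, FF2 and FF4, and 4.37, 4.68 and 3.79 CPM in FCRE3, FCRE4 and FCRE5. Like Dsc3, both had FCRE5 as their lowest library, which follows largely from choosing them by their correlation with Dsc3. Pnpla6, a phospholipase of neurons, averaged 72.6 ± 1.3 CPM for Control against 63.2 ± 2.0 for CAP1-KO.

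**Figure D4:**
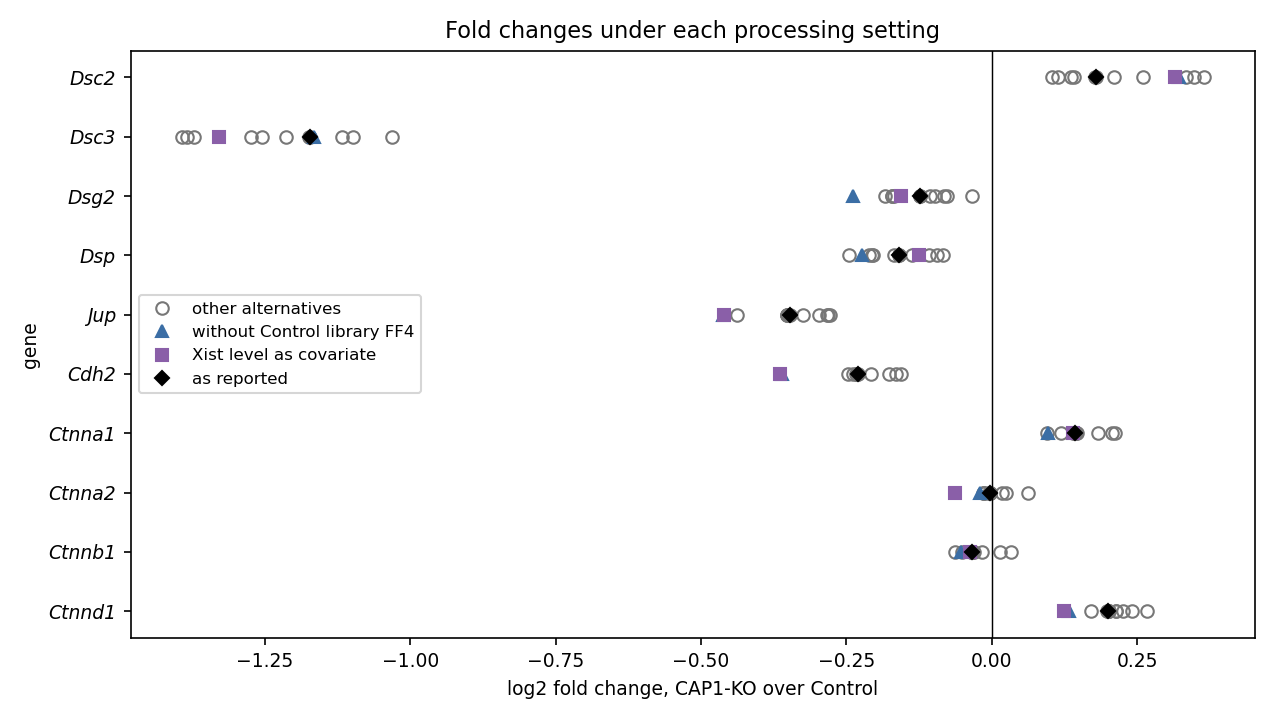
Log2 fold change of CAP1-KO over Control for the 10 genes as reported (black) and under 13 alternatives, with the fit without FF4 and the fit with the Xist covariate marked. Dsc3 lay between -1.39 and -1.03 in all of them, Jup and Cdh2 reached -0.46 and -0.36 without FF4, and Ctnna2 and Ctnnb1 straddled 0.

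Over the 13 alternatives, the direction was the same as reported for 8 of the 10 genes. Dsc3, Dsg2, Dsp, Jup and Cdh2 were negative in 13 of 13, and Dsc2, Ctnna1 and Ctnnd1 positive in 13 of 13. Ctnna2 was positive in 3 and Ctnnb1 in 2. Dsc2 ranged from 0.10 to 0.36, the widest relative range of the positive genes, and Ctnnd1 from 0.12 to 0.27. The 13 alternatives reuse the same libraries, all of them or all but a single library. Agreement in sign among them is therefore largely built in and does not show that a direction would recur in other libraries. For Dsc2 the reported difference was about as wide as its SE (0.18, SE 0.16). Dsc2 also passed the filter on low values only through its CAP1-KO mean.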

How the data were processed

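Per the labels' protocols, RNA was extracted with TriFast reagent, DNase-treated, selected for poly(A) and made into stranded libraries. STAR, edgeR and the builds GRCm38 and mm10 are named in the submitters' processing notes, without versions, and no counter, annotation or filter is given in the sources used here, so how reads of paralogs were divided is unknown. Values deposited by the authors are, per the file headers, normalized counts on a log2 scale, with log2 fold changes, F scores, p-values and FDR. Columns name the genotype (FF or FCRE) and a number that does not match the labels' replicate numbers. The lowest log2 value was taken as an offset of 0 reads and removed from the antilog to give CPM; 100% of values then came within 0.01 of a whole read.

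The count test named in the design was not used, since the table holds log2 values, and limma 3.58.1 (R 4.3.3) with an intensity trend was fitted on log2(CPM + 1) to the 13885 genes averaging 1 CPM or more, adjusted by Benjamini-Hochberg, threshold 0.05. On simulated reads it called 73 of 100 genes changed 1.5-fold and 92 of 100 changed 2-fold. The simulation drew each gene separately, with no deviation shared across a library such as FF4, so these numbers may not hold for these libraries. Replicate pairs all differed beyond sampling noise (chi-square per gene 5.54 to 31.5). Coordinates came from RefSeq (GRCm38.p6) by gene number. The 10 genes, the lists and the alternatives were chosen with earlier results of these data known. The text names all 10, Cap1, the called genes of each list or else its 2 most abundant, and the 3 genes most correlated with Dsc3; other genes were chosen after their values were seen. In 25.5% of 24819 rows the symbol and the gene number name different genes; list genes were used only where both agree, which dropped 11 names of the junction lists (Dsc1, Dsg1a, Dsg1b, Dsg1c, Dsg3, Dsg4, Pkp3, Cdh1, Cdh3, Sp5, Dkk1) and 5 markers. Neither candidate row of any of these exceeded 0.641 CPM.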

Additional observations from a re-analysis of the deposited data

How the results depend on the processing

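As reported, 134 genes of the table were called, 78 higher and 56 lower. Adding Xist as a covariate left 26 (23 higher, 3 lower), and testing genes without the filter left 88 (68 and 20). Omitting 1 library gave from 36 to 3914: 43 for FF1 (37 higher, 6 lower), 62 for FF2 (50 and 12), 3914 for FF4 (1292 and 2622), 72 for FCRE3 (65 and 7), 252 for FCRE4 (77 and 175) and 36 for FCRE5 (33 and 3). Of the 10 junction genes 1 was called, against 0 with the Xist covariate and 0 to 3 when 1 library was left out. Dsc3 was called in 10 alternatives but missed the threshold with the Xist covariate (log2 fold change -1.33), omitting FF2 (-1.10) or omitting FCRE3 (-1.21). Of the 13 alternatives, only the one without FF4 called Jup (-0.46) and Cdh2 (-0.36). Ctnna2 turned positive with scaling to total reads (0.062), omitting FF2 (0.025) and omitting FCRE4 (0.017), and Ctnnb1 with scaling to total reads (0.032) and without FCRE4 (0.014). The nectin and actin linker list had 1 gene called when unfiltered, 1 with the Xist covariate and 1 to 6 with 1 library left out. With 1 library left out, the other lists ranged from 0 to 3 called (other desmosome), 0 to 3 (other classical cadherin), 0 to 2 (other catenin), 0 to 5 (tight junction), 0 to 7 (beta-catenin turnover) and 0 to 3 (beta-catenin targets). The 5 tight junction genes called without FF4 include Cldn11, which passed the filter on low values only through FCRE4 and FCRE5. Scaling to total reads moved the median log2 fold change over all tested genes from -0.006 to 0.056. The cause of the moves in calls was not tested. limma-voom, median-of-ratios size factors, a pseudocount of 0.1 and the deposited log2 values kept every count of calls named here within 1.5 times. limma-voom used the deposited scaling rather than TMM, and the edgeR test was not run, since the table holds log2 values. No paired analysis was possible because the column names carry numbers other than the replicates' own. Depth limits Dsc2 (24 to 49 reads per library), Dsg2 (59 to 84) and Dsp (95 to 119), where a log2(CPM + 1) fold change understates the difference. The same holds for Dsc3, at -1.17 as reported, -1.37 with a pseudocount of 0.1 and -1.38 on the deposited log2 values.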

Other observations

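A pair of genes from the lists had wide differences but were not called as reported; both were chosen after their values were seen. Cldn11, a claudin of arachnoid and myelin, measured 0.224, 0.208 and 0.363 CPM in FF1, FF2 and FF4, and 0.563, 4.32 and 4.61 CPM in FCRE3, FCRE4 and FCRE5. It rested on 7 to 12 reads per Control library and passed the filter on low values only through FCRE4 and FCRE5, so no fold or test is given. The libraries with high Cldn11 were those with high meningeal and arachnoid markers (102 and 92.6 CPM in FCRE4 and FCRE5, against 19.9 to 21.0 CPM in the other 4). Tcf7l2, a nuclear partner of beta-catenin, measured 3.56, 3.13 and 7.89 CPM in FF1, FF2 and FF4, and 10.3, 9.41 and 7.96 CPM in FCRE3, FCRE4 and FCRE5 (log2 fold change 0.89, SE 0.27, limma adjusted p = 0.125, from 0.000312 to 0.369 over the alternatives). Without FF4, which was about as high as FCRE5, its log2 fold change was 1.23 and it was called (limma adjusted p = 0.000312). Of the 13 alternatives this was the only one that called it.

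The symbols of the weakly expressed desmosomal genes should be read with care. In 6323 of 24819 rows with both labels, the symbol and the gene number of a row name different genes, and in 95.5% of these both genes lie on 1 chromosome, at a median distance of 53.9 kb. Only 6 of the 6323 rows have a mean of at least 1 CPM, of 13614 rows at that level, and all 10 junction genes described here agree in both labels. Among rows under 1 CPM, 862 of 887 disagree on chromosome 2 and 1116 of 1162 on chromosome 7, against 0 of 486 on chromosome 10 and 0 of 724 on chromosome 11. A search by symbol for Dsg3 or Cdh1, for example, returns a row whose gene number belongs to another gene. Which label the values follow was not tested.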
